A study of Mus musculus with 8 samples.

Results

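Genes of the B lineage, 9 in all, were followed in the paw of arthritic mice: 4 that mark antibody-secreting plasma cells (Jchain, Prdm1, Sdc1 and Xbp1) and 5 that mark B cells (Pou2af1, Cd79a, Cd79b, Ms4a1 and Ebf1). Each was taken as the probe set whose platform annotation gives that 1 symbol, and each had 1 such probe set, so that these are 9 of 19938 genes named on the array. The RNA was that of paws from DBA/1J males aged 8 to 10 weeks, in 4 groups of 8 mice with 2 Affymetrix Mouse Gene 1.0 ST arrays per group. The CIA+MLIF and CIA mice were immunised against type II collagen of the chicken, 150 µg emulsified in complete Freund adjuvant, and boosted at week 3 with incomplete adjuvant, a standard model of collagen-induced arthritis (CIA). The adjuvant+MLIF and adjuvant mice received the adjuvants without collagen, so that adjuvant was common to all 4 groups. MLIF (monocyte locomotion inhibitory factor), a pentapeptide of the amoeba Entamoeba histolytica, was given nasally each week to the CIA+MLIF and adjuvant+MLIF groups. The sample labels place collection 4 weeks after the booster, whereas the series text places it before. The labels call the arrays biological replicates without saying whether 1 array held 1 mouse or several, and p-values here measure the spread between arrays only.

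When a B cell is activated it can mature into a plasma cell, which stops displaying its antigen receptor and secretes antibody in bulk. The transcription factor Blimp-1, encoded by Prdm1, shuts off much of the B cell program during that change, and XBP1 enlarges the secretory apparatus. Collagen-induced arthritis depends in part on antibodies to type II collagen, which are made mainly in lymph nodes, spleen and bone marrow. None of the 9 genes is exclusive to its lineage in a whole paw: Sdc1 and Prdm1 are also active in epidermal cells, Xbp1 in secretory cells in general, Ebf1 in fat and stromal progenitors, and Prdm1 in macrophages and T cells.

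In short, Jchain, Prdm1 and Sdc1 were higher in CIA than in adjuvant paws, Ebf1 was lower, and the other 5 genes did not pass the test. Jchain and Sdc1 were lower in CIA+MLIF than in CIA paws. Jchain in CIA+MLIF lay at its adjuvant level, while Sdc1 and Prdm1 in CIA+MLIF lay between the CIA level and the level of both adjuvant groups.

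Signals are the deposited log2 values, and a change is a difference of group means on that scale, so that 1 means a doubling of signal. A change passed when its p, adjusted by Benjamini and Hochberg over all 28944 probe sets in 1 limma fit, was under 0.05. Standard errors of a change had a median of 0.18, the limit set by 2 arrays per group. CIA replicate 1 was dimmer than the rest, its tested probe sets having a median of 6.66, while the 7 remaining arrays had 7.07 to 7.10. Taken over the whole array, the median change was accordingly -0.25 for CIA against adjuvant and 0.24 for CIA+MLIF against CIA. The 2 adjuvant+MLIF arrays were unusually close to each other (SD of their difference 0.0936, against 0.207 to 0.324 in the other groups). Cartilage and synovial lining genes, a marker check of the labelled articular tissue added after the data were seen, had mean log2 signals of 10.46 and 10.51 in CIA+MLIF, 10.08 and 10.33 in CIA, 10.55 and 10.53 in adjuvant+MLIF, and 10.44 and 10.50 in adjuvant. Of the 8 genes, 2 fell in CIA against adjuvant, where 14.2% of all probe sets fell. They were Col10a1, with 8.12 and 8.60 in CIA against 9.57 and 9.76 in adjuvant, and Cilp. Both were higher in CIA+MLIF than in CIA, where 11.5% of all probe sets rose. Prg4, the lubricin gene, had signals of 12.78 and 12.90 in CIA+MLIF, 12.74 and 12.78 in CIA, 12.97 and 12.95 in adjuvant+MLIF, and 12.94 and 13.00 in adjuvant.

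The transcription start regions of the plasma cell genes that rose in CIA, and of the antigen receptor gene Cd79a for comparison, are printed to show what the promoters of these genes look like side by side. They cover 250 bases before to 50 bases after the start site, written 5′ to 3′ on the strand of the gene, and come from RefSeq on build GRCm38.p6: Jchain at chr5:88527848-88528147 (minus strand), Prdm1 at chr10:44458699-44458998 (minus strand), Sdc1 at chr12:8771146-8771445 (plus strand) and Cd79a at chr7:24897247-24897546 (plus strand). Capitals mark a GC box.
Jchain: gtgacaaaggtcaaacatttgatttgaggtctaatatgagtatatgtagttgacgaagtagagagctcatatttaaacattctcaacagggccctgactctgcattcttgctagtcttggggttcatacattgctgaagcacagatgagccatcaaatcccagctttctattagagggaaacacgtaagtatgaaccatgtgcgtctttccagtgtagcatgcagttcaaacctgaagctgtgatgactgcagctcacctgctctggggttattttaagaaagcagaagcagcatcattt
Prdm1: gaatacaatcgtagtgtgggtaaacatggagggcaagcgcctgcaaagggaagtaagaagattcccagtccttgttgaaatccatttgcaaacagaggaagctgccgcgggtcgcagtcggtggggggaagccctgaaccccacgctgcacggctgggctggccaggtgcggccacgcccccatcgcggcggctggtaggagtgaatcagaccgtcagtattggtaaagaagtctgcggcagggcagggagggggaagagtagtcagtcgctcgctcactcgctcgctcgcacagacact
Sdc1: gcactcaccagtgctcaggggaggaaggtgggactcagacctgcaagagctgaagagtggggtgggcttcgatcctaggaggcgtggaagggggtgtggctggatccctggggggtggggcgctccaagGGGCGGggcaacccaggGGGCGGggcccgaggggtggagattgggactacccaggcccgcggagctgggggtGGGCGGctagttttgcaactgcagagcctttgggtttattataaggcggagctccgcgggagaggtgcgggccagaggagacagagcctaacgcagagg
Cd79a: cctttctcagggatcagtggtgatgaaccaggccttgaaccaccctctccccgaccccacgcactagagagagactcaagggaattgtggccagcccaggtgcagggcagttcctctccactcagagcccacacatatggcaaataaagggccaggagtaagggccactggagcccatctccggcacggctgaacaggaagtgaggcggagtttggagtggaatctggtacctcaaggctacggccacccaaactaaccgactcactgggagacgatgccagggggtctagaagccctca
The table held such a region for 7 of the 9 genes, Cd79b and Ms4a1 being the others, with 8 start sites in all. A set of 6 motifs was searched on both strands, without overlap among the matches found. The GC box GGGCGG, which was added after the sequences were seen, occurred 3 times in Sdc1, 121, 104 and 49 bases before the start, and is present in 35.7% of 32851 mouse promoters of that length. The unfolded protein response element TGACGTGG occurred once, 61 bases before the start of Pou2af1 (0.676% of promoters hold it). The Blimp-1 core AGNGAAAG occurred once, on the opposite strand 170 bases before the second start site of Ebf1 (8.63% of promoters). The octamer ATGCAAAT (1.74% of promoters), the palindromic EBF1 site (0.904%) and the bipartite ER stress element (0.119%) were in none of the 8 windows. Jchain, Prdm1, Xbp1 and Cd79a thus held none of the 6 motifs in these windows, and the 3 genes that rose in CIA shared none.

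**Figure D1:**
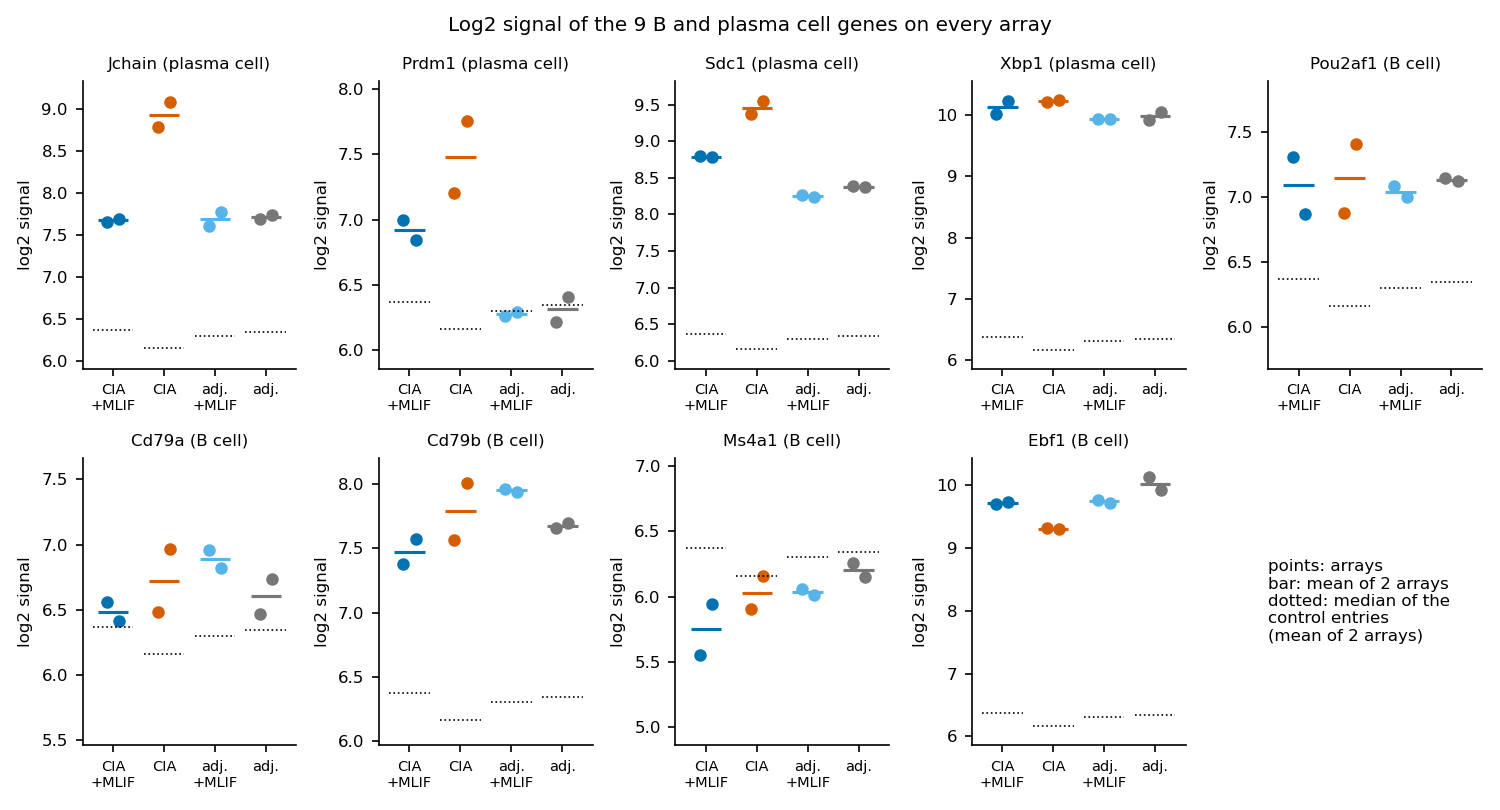
Deposited log2 signal of each of the 9 genes on all 8 arrays, 1 panel per gene with its own vertical scale, 4 plasma cell genes and 5 B cell genes, with a point per array, a bar at each group mean and a dotted line at the median of the entries taken as array controls. Jchain stands out in CIA alone (8.78 and 9.08), Sdc1 and Prdm1 are intermediate in CIA+MLIF, and Ebf1 is lowest in CIA (9.31 on both arrays).

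Jchain encodes the joining chain that links IgA and IgM into polymers and is strongly active in plasma cells. Its probe set, 10531126, had log2 signals of 7.65 and 7.69 in CIA+MLIF, 8.78 and 9.08 in CIA, 7.61 and 7.77 in adjuvant+MLIF, and 7.69 and 7.74 in adjuvant. Both CIA arrays lay at least 1 log2 unit above all 6 others, which overlapped among themselves. Jchain was 2.33-fold higher in CIA than in adjuvant (log2 change 1.22, SE 0.16, 95% interval 0.86 to 1.57, limma adjusted p = 0.000846). It fell in CIA+MLIF relative to CIA, to 0.418 of the CIA signal (log2 change -1.26, SE 0.16, adjusted p = 0.000981). Between CIA+MLIF and adjuvant+MLIF it differed by -0.02 (95% interval -0.37 to 0.34), and between adjuvant+MLIF and adjuvant by -0.02.

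Prdm1, the gene of Blimp-1 (probe set 10368970), had log2 signals of 6.99 and 6.84 in CIA+MLIF, 7.20 and 7.75 in CIA, 6.26 and 6.29 in adjuvant+MLIF, and 6.22 and 6.41 in adjuvant. The groups formed 3 steps without overlap, CIA above CIA+MLIF above both adjuvant groups. The adjuvant levels were close to those of the array controls: Prdm1 exceeded the control median on 5 of 8 arrays, so the low end of its change is not well measured. Prdm1 was 2.24-fold higher in CIA than in adjuvant (log2 change 1.17, SE 0.20, adjusted p = 0.00357). In CIA+MLIF against CIA its change of -0.56 (SE 0.20) did not pass (unadjusted p = 0.0190 in the limma fit, adjusted p = 0.0878). Without CIA replicate 1, the dim array, that change was -0.84 and passed (adjusted p = 0.00528), and it also passed after quantile normalization (-0.75, adjusted p = 0.00259). The difference of CIA+MLIF from adjuvant+MLIF was 0.64 (95% interval 0.20 to 1.08, adjusted p = 0.557).

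Sdc1 encodes syndecan 1, a surface proteoglycan used to sort plasma cells and present on most epithelia. Its log2 signals (probe set 10394471) were 8.79 on both CIA+MLIF arrays, 9.37 and 9.55 in CIA, 8.26 and 8.24 in adjuvant+MLIF, and 8.39 and 8.37 in adjuvant. Its order over the groups was that of Prdm1. Sdc1 was 2.12-fold higher in CIA than in adjuvant (log2 change 1.08, SE 0.14, adjusted p = 0.000896). It fell to 0.628 of the CIA signal in CIA+MLIF (log2 change -0.67, SE 0.14, adjusted p = 0.0141). That call was lost without CIA+MLIF replicate 1 (adjusted p = 0.0908), without CIA+MLIF replicate 2 (0.0762) and without either adjuvant+MLIF array (0.0559 each), with array weights (0.151) and in a fit of only the groups compared (0.152), with the change at -0.67 throughout. CIA+MLIF differed from adjuvant+MLIF by 0.54 (95% interval 0.22 to 0.86, adjusted p = 0.346), a change that passed without CIA replicate 1 or without CIA replicate 2 (0.54, adjusted p = 0.0266 for each), as did that of Prdm1 (0.64, adjusted p = 0.0403 for each).

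Xbp1, the transcription factor of the secretory program (probe set 10374035), had signals of 10.03 and 10.24 in CIA+MLIF, 10.22 and 10.25 in CIA, 9.94 and 9.95 in adjuvant+MLIF, and 9.92 and 10.06 in adjuvant. The CIA arrays lay above both adjuvant arrays, yet the change of 0.24 (SE 0.15, 95% interval -0.09 to 0.58) did not pass (adjusted p = 0.259). After quantile normalization it was 0.40 and passed (adjusted p = 0.0159). CIA+MLIF differed from CIA by -0.10 (adjusted p = 0.655), with overlapping arrays. The probe set does not separate the spliced form of the Xbp1 message, which encodes the active factor, from the unspliced one.

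Among the B cell genes, Cd79a and Cd79b encode the paired signalling chains of the B cell antigen receptor. Cd79a (probe set 10551025) had signals of 6.56 and 6.41 in CIA+MLIF, 6.48 and 6.97 in CIA, 6.96 and 6.82 in adjuvant+MLIF, and 6.47 and 6.74 in adjuvant. Cd79b (probe set 10392142) had 7.38 and 7.57 in CIA+MLIF, 7.57 and 8.01 in CIA, 7.96 and 7.94 in adjuvant+MLIF, and 7.65 and 7.70 in adjuvant. In both genes the CIA arrays were far apart and overlapped with the adjuvant ones, and the CIA+MLIF arrays lay below the adjuvant+MLIF arrays without overlap. Neither passed in CIA against adjuvant (0.12, 95% interval -0.32 to 0.56, for Cd79a, and 0.11, -0.29 to 0.51, for Cd79b). Those intervals hold no rise as large as that of Jchain. Cd79a, however, exceeded only 51.3% to 63.2% of the control entries over the arrays, so its changes are not well measured. The changes in CIA+MLIF against CIA were -0.24 for Cd79a (adjusted p = 0.398) and -0.31 for Cd79b (adjusted p = 0.240). Both passed as lower after quantile normalization (-0.49, adjusted p = 0.0204, and -0.46, adjusted p = 0.0102), and Cd79b also without CIA replicate 1 (-0.54, adjusted p = 0.0199). Against adjuvant+MLIF, the CIA+MLIF changes were -0.40 for Cd79a and -0.48 for Cd79b (adjusted p = 0.874 for Cd79b), and neither passed.

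Ms4a1, the gene of a B cell surface protein that is the target of rituximab in humans, was barely detected. Its probe set, 10466172, had signals of 5.56 and 5.94 in CIA+MLIF, 5.91 and 6.16 in CIA, 6.06 and 6.01 in adjuvant+MLIF, and 6.26 and 6.15 in adjuvant, and exceeded the control median on 1 of 8 arrays. Differences between its groups can therefore be read only as differences near background. Its change was -0.17 in CIA against adjuvant (adjusted p = 0.495) and -0.28 in CIA+MLIF against CIA (adjusted p = 0.282). The second of these passed after quantile normalization (-0.64, adjusted p = 0.0219).

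Pou2af1 encodes a coactivator of octamer-binding factors that B cells and plasma cells share. Its signals (probe set 10585276) were 7.30 and 6.87 in CIA+MLIF, 6.88 and 7.41 in CIA, 7.08 and 6.995 in adjuvant+MLIF, and 7.14 and 7.12 in adjuvant. The arrays of both collagen groups spanned those of both adjuvant groups. The change was 0.01 in CIA against adjuvant (95% interval -0.47 to 0.49) and -0.06 in CIA+MLIF against CIA (adjusted p = 0.870).

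Ebf1, the early B cell factor that sets up the B cell program and is also active in fat cell precursors, moved the other way. Its signals (probe set 10375360) were 9.70 and 9.74 in CIA+MLIF, 9.31 on both CIA arrays, 9.77 and 9.72 in adjuvant+MLIF, and 10.14 and 9.92 in adjuvant. The CIA arrays were the lowest, the adjuvant arrays the highest, and both MLIF groups lay together between them. Ebf1 fell to 0.609 of the adjuvant signal in CIA (log2 change -0.72, SE 0.15, 95% interval -1.04 to -0.39, adjusted p = 0.00958). That call was lost without adjuvant replicate 1 (-0.61, adjusted p = 0.118), with array weights (adjusted p = 0.132) and in a fit of only the groups compared (adjusted p = 0.0813). Ebf1 differed between CIA+MLIF and CIA by 0.40 (95% interval 0.08 to 0.73, adjusted p = 0.0927), which passed without CIA replicate 2 (adjusted p = 0.0263) and came to 0.28 after quantile normalization.

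**Figure D2:**
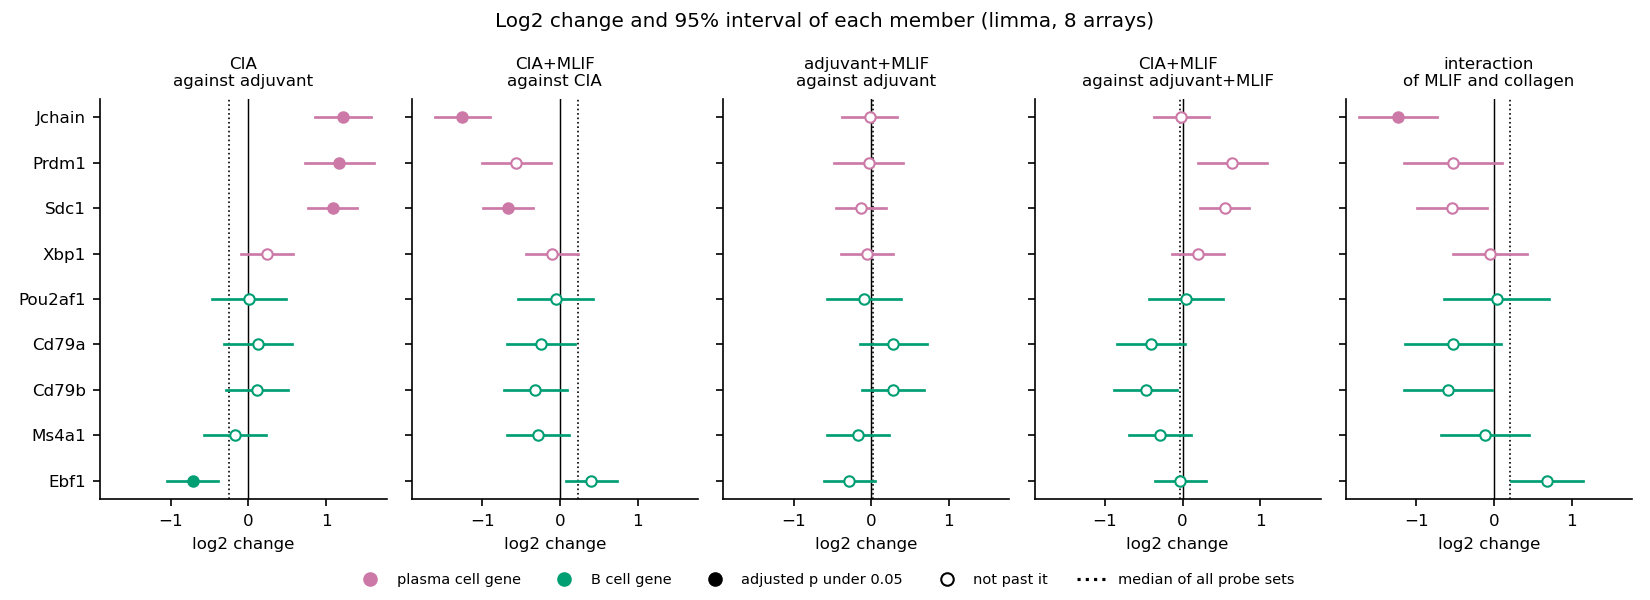
Log2 change of each of the 9 genes in the comparisons of the study, with 95% intervals from the limma fit, filled points where the adjusted p is under 0.05 and a dotted line at the median change of all probe sets. Jchain, Prdm1 and Sdc1 are filled on the higher side in CIA against adjuvant and Ebf1 on the lower side, and Jchain and Sdc1 are filled on the lower side in CIA+MLIF against CIA.

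Set against the whole array, 4 of the 9 genes passed in CIA against adjuvant, as did 18.5% of all probe sets: 3 rose, where 4.3% of all did, and 1 fell, where 14.2% did. All 3 rises were among the 4 plasma cell genes, whose median change was 1.12, and the fall was among the 5 B cell genes, whose median change was 0.01, against -0.25 for all probe sets. Arrays of the 2 groups did not overlap in 4 genes that were higher (12.5% of all probe sets) and 1 that was lower (44.7%). For CIA+MLIF against CIA, 2 of 9 passed (14.7% of all probe sets), of which 0 rose (11.5%) and 2 fell (3.25%), both plasma cell genes. Arrays did not overlap in 3 genes that were lower, Jchain, Prdm1 and Sdc1 (10.9% of all probe sets), and in 1 that was higher, Ebf1 (40.7%). The medians there were -0.62 for the plasma cell genes and -0.24 for the B cell genes, against 0.24 for all probe sets. These 2 comparisons share the CIA arrays, so that a high CIA array raises the one change and lowers the other. The count of 2 was sensitive to scale: 6 of 9 genes were lower after quantile normalization (Jchain, Prdm1, Sdc1, Cd79a, Cd79b and Ms4a1), where 3318 of 7089 calls over all probe sets were higher, against 3315 of 4257 as deposited. Without CIA replicate 1 the changes were -1.40 for Jchain, -0.76 for Sdc1 and -0.84 for Prdm1, and without CIA replicate 2 they were -1.11, -0.58 and -0.28. The call of Sdc1 was lost in several fits with 1 array left out, as given above.

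In mice without collagen, 0 of the 9 genes passed in adjuvant+MLIF against adjuvant, where 0% of all probe sets did. None of the 9 passed in any of the 20 alternatives either, while the count over all probe sets reached 365 after quantile normalization, 275 with centring, 676 with only the groups compared, 1440 with array weights and 529 without either CIA array. None of the 9 had an unadjusted p under 0.05 in the limma fit, against 1107 probe sets in all. Changes in adjuvant+MLIF against adjuvant lay between -0.28 for Ebf1 and 0.29 for Cd79a. Arrays there did not overlap in 2 genes that were higher, Cd79a and Cd79b (31.7% of all probe sets), and in 4 that were lower, Sdc1, Pou2af1, Ms4a1 and Ebf1 (23%). Between CIA+MLIF and adjuvant+MLIF, 0 of 9 passed (0.729% of all probe sets did, 0.712% as higher and 0.0173% as lower), with 3 at an unadjusted p under 0.05, namely Prdm1, Sdc1 and Cd79b. Arrays did not overlap in 3 genes that were higher, Prdm1, Sdc1 and Xbp1 (21% of all probe sets), and in 3 that were lower, Cd79a, Cd79b and Ms4a1 (32.2%). With array weights 3 genes passed (2.28% of all probe sets), Prdm1 and Sdc1 as higher and Cd79b as lower.

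Whether the peptide acted differently with and without collagen was tested as an interaction, the change of CIA+MLIF against CIA minus that of adjuvant+MLIF against adjuvant. On the deposited values Jchain alone among the 9 passed (-1.24, SE 0.22, adjusted p = 0.00949). Over all probe sets 7.24% did (5.62% with a positive and 1.62% with a negative interaction). The call of Jchain was lost without CIA+MLIF replicate 1 (-1.22), adjuvant replicate 1 (-1.21), adjuvant replicate 2 (-1.26) or adjuvant+MLIF replicate 2 (-1.15), while the size stayed within that range. It was also lost with array weights (adjusted p = 0.0530) and with the 2 adjuvant+MLIF arrays entered as 1 (adjusted p = 0.0643). For the rest the interaction was 0.69 for Ebf1 (adjusted p = 0.0847), -0.59 for Cd79b (0.215), -0.54 for Sdc1 (0.156) and -0.53 for both Prdm1 (0.311) and Cd79a (0.305). After quantile normalization 5 of the 9 passed, where 17.4% of all probe sets did. These were Jchain, Prdm1, Sdc1, Cd79a and Cd79b, all negative. Ebf1 passed without the lowest tercile of mean signal (adjusted p = 0.0432) and with trended and robust variance (adjusted p = 0.0364). Without CIA replicate 1 the interaction was -0.80 for Prdm1, -0.63 for Sdc1, -0.77 for Cd79a and -0.81 for Cd79b. Without CIA replicate 2 these were -0.25, -0.45, -0.29 and -0.37, so their size depends on which CIA array is kept. That of Ebf1 was 0.69 in both cases.

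The plasma cell genes were also set against the B cell genes within each array, as the mean log2 signal of the 4 minus that of the 5, each gene first taken relative to its adjuvant mean. This difference was 0.50 and 0.51 on the CIA+MLIF arrays, 1.09 and 1.02 on the CIA arrays, -0.12 and -0.01 on the adjuvant+MLIF arrays, and -0.05 and 0.05 on the adjuvant arrays. CIA replicate 1 had a plasma cell mean of 0.80 and a B cell mean of -0.30, and CIA replicate 2 had 1.06 and 0.04, so that their differences were closer than either mean. The arrays of the CIA+MLIF and CIA groups did not overlap with each other or with the adjuvant groups. The plasma cell mean itself averaged 0.28 ± 0.016 in CIA+MLIF, 0.93 ± 0.19 in CIA, -0.06 ± 0.031 in adjuvant+MLIF and 0 in adjuvant (SD, n = 2 each). The B cell mean averaged -0.23 ± 0.0053 in CIA+MLIF, -0.13 ± 0.24 in CIA, 0.00 ± 0.049 in adjuvant+MLIF and 0 in adjuvant. CIA thus differed from adjuvant in the plasma cell mean, with the B cell mean of its 2 arrays spanning that of adjuvant. In CIA+MLIF the plasma cell mean lay above adjuvant by more than the replicate SD of any group. Jchain had no part in that (means 7.67 in CIA+MLIF and 7.71 in adjuvant), unlike Prdm1 (6.92 and 6.31), Sdc1 (8.79 and 8.38) and Xbp1 (10.14 and 9.99). The B cell mean there was -0.23, a shift smaller than the SD of 0.24 between the CIA arrays. Its small SD in CIA+MLIF came from genes that moved in opposite directions between the arrays, such as Pou2af1 (7.30 and 6.87) and Ms4a1 (5.56 and 5.94). The difference is a description of 9 chosen genes and was not tested. Cd79a and Ms4a1, which enter the B cell mean, lay near the array controls. Ebf1 contributed to it: without that gene the CIA+MLIF against CIA change of -0.55 became -0.42.

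**Figure D3:**
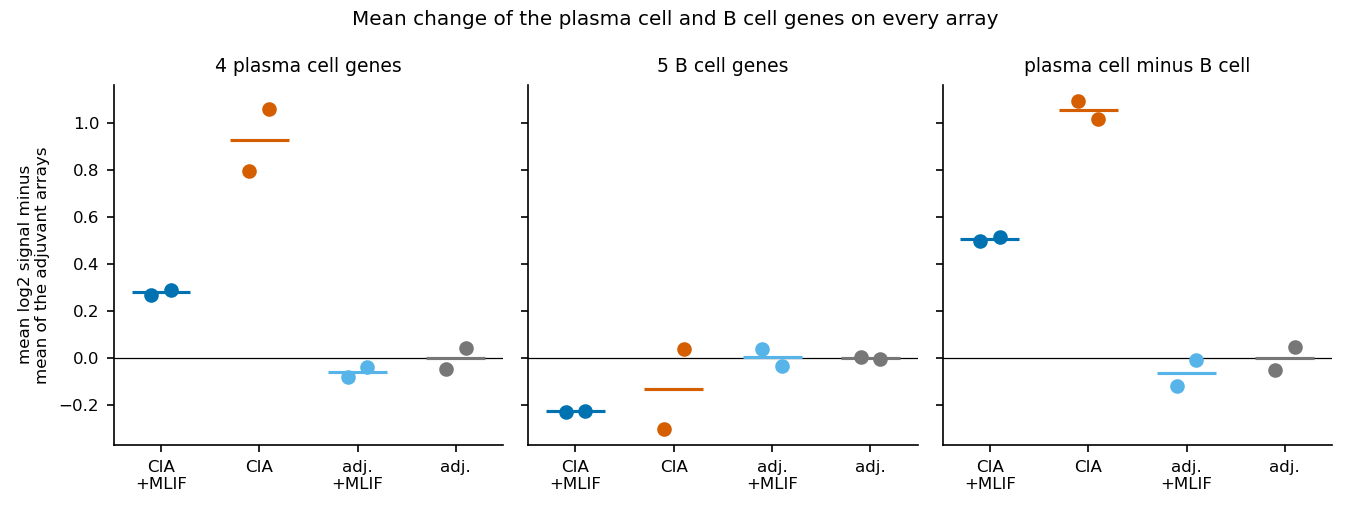
Mean log2 signal of the 4 plasma cell genes and of the 5 B cell genes relative to adjuvant, and their difference, with a point per array. The plasma cell mean is highest in CIA (0.93) and intermediate in CIA+MLIF (0.28, to which Jchain, at its adjuvant level there, does not add). The B cell mean lies between -0.30 and 0.04 on all 8 arrays.

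Other genes of the lineage are set beside the share of all probe sets that passed. Of 13 measured further plasma cell genes, 1 rose and 1 fell in CIA against adjuvant, where 4.3% of all probe sets rose and 14.2% fell. Their median change was -0.14, against -0.25 for all probe sets. Fkbp11, a folding helper of secretory cells, rose, with 7.06 and 7.38 in CIA against 6.51 and 6.58 in adjuvant (log2 change 0.67, adjusted p = 0.0195). Irf4, a transcription factor that plasma cells require, fell, with 5.88 and 6.32 in CIA against 6.83 and 6.90 in adjuvant (-0.77, adjusted p = 0.0172). Its CIA signals were level with the array controls (medians 5.88 and 6.44). Under the peptide, in CIA+MLIF against CIA, Fkbp11 fell (-0.81) while Irf4 (0.75) and Tnfrsf17, the receptor for a plasma cell survival factor, rose (0.61). Of all probe sets 3.25% fell and 11.5% rose there. The list median was 0.09, against 0.24 for all probe sets. Tnfrsf17 had 6.13 and 6.32 in CIA+MLIF against 5.41 and 5.81 in CIA, below the control median on all 4 of these arrays, so that its difference lies within background. Mzb1, a chaperone of antibody assembly, changed by 0.10 in CIA against adjuvant (adjusted p = 0.658). The interaction was negative for Fkbp11 (-1.01, adjusted p = 0.0274).

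Antibody genes could be read at 3 of 11 constant regions, the others having no probe set of 1 symbol. Ighm, the constant region of IgM, had signals of 7.69 and 7.52 in CIA+MLIF, 7.65 and 7.72 in CIA, 7.54 and 7.58 in adjuvant+MLIF, and 7.49 and 7.54 in adjuvant. Its change in CIA against adjuvant was 0.17 (adjusted p = 0.406). Igha, the constant region of IgA, changed by -0.48 (adjusted p = 0.0696), with 7.51 and 7.88 in CIA against 8.21 and 8.14 in adjuvant. Ighg3 lay below the control median on all 8 arrays. Of all probe sets, 18.5% passed in CIA against adjuvant and 14.7% in CIA+MLIF against CIA. None of the 3 antibody genes passed in any comparison on the deposited values. After quantile normalization 1 passed as lower in CIA against adjuvant, where 28.1% of all probe sets passed. Without CIA replicate 2 the dim array alone stood for CIA, and calls of these genes also altered in that fit. Immunoglobulin genes are alike in sequence, so that probe sets may share signal between them.

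Of 19 measured further B cell genes, 0 passed in any of the 5 comparisons in limma. Over all probe sets 18.5% passed in CIA against adjuvant, 14.7% in CIA+MLIF against CIA and 7.24% for the interaction. The shares were 0.729% in CIA+MLIF against adjuvant+MLIF and 0% in adjuvant+MLIF against adjuvant. Of the 19, 2 had an unadjusted p under 0.05 in limma in CIA against adjuvant (10204 of all 28944 probe sets did). Their median change there was -0.20, close to the -0.25 of all probe sets. Pax5, which holds cells in the B cell state, had 6.88 and 7.31 in CIA against 7.22 and 7.15 in adjuvant (-0.09, adjusted p = 0.727). Cd22, an inhibitory receptor, changed by -0.16 (adjusted p = 0.598). This count of 0 rested on both CIA arrays: without CIA replicate 2, leaving the dim array alone, 11 of the 19 passed in CIA against adjuvant, all as lower, where 61.2% of all probe sets passed. After quantile normalization 5 passed, 4 as higher and 1 as lower, where 28.1% of all probe sets passed.

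**Figure D4:**
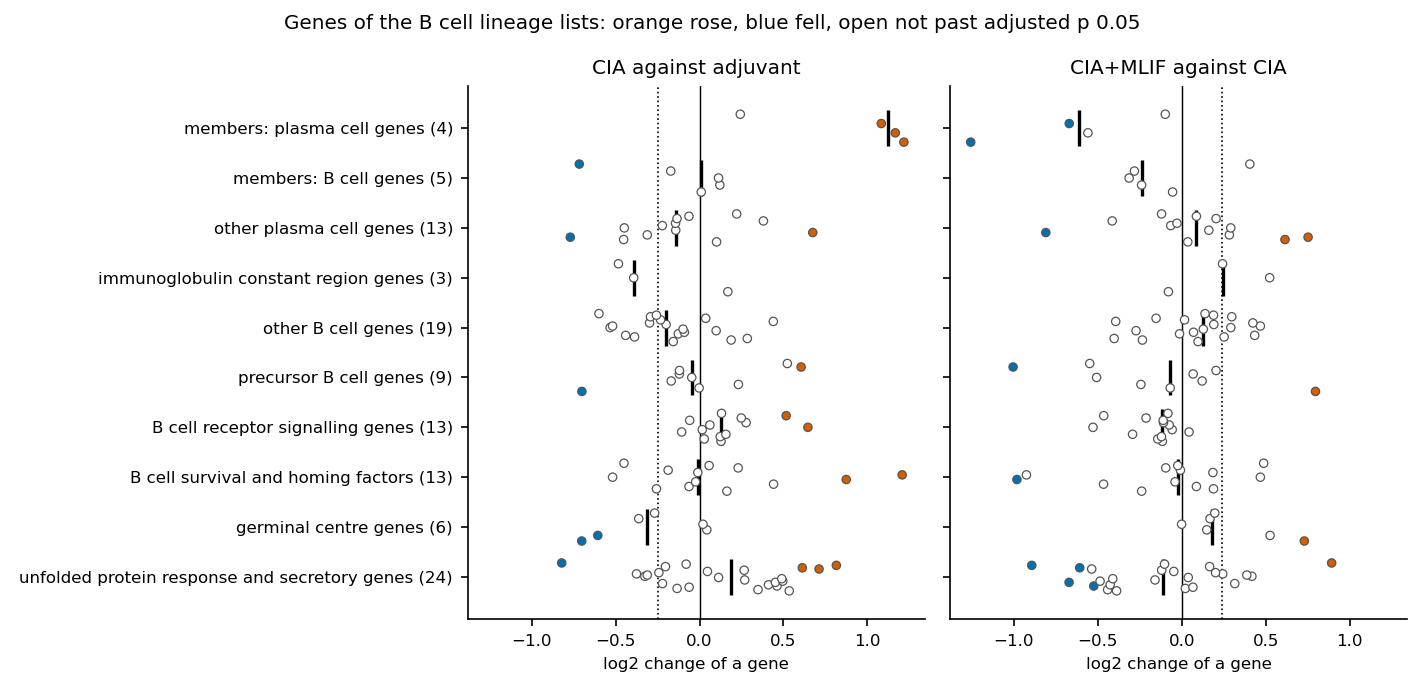
Log2 change of every measured gene of 10 lists, with CIA against adjuvant beside CIA+MLIF against CIA, a point per gene, orange for rises and blue for falls at an adjusted p under 0.05, a thick bar at each list's median and a dotted line at the median of all probe sets. The further B cell genes carry no coloured point, and the other lineage lists carry between 0 and 5 in either comparison.

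Genes that act around B cells are given against the 18.5% of all probe sets called in CIA against adjuvant, 4.3% as rises. In B cell receptor signalling, 2 of 13 rose in CIA against adjuvant, Vav1 (0.65) and Ptpn6 (0.52), which act in most blood cells, and 0 passed in CIA+MLIF against CIA, with 2 at an unadjusted p under 0.05 in limma. Among survival and homing factors, 2 of 13 rose. Cxcr4, the receptor that draws plasma cells to marrow and is also present on neutrophils, had 8.71 and 8.55 in CIA+MLIF, 9.56 and 9.67 in CIA, 8.66 and 8.64 in adjuvant+MLIF, and 8.74 and 8.73 in adjuvant. It rose by 0.87 in CIA against adjuvant (adjusted p = 0.00303), fell in CIA+MLIF against CIA (-0.98, adjusted p = 0.00216), and had an interaction of -0.89 (adjusted p = 0.0290). Il6, a plasma cell growth factor, also rose in CIA (1.21, adjusted p = 0.0250), yet lay below the control median on all 8 arrays. Tnfsf13b, the gene of the B cell survival factor BAFF, changed by 0.16 (adjusted p = 0.560), and Cxcl13, which attracts B cells to follicles, by 0.44 (adjusted p = 0.249).

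Among 9 precursor B cell genes, Il7r, the interleukin 7 receptor chain that T cells also carry, rose in CIA (0.61) and Vpreb1, part of the surrogate light chain, fell (-0.70), to 5.97 and 6.30 in CIA, level with the array controls. Both went the other way in CIA+MLIF against CIA (-1.01 and 0.80). Of all probe sets 4.3% rose and 14.2% fell in CIA against adjuvant, and 11.5% rose and 3.25% fell in CIA+MLIF against CIA. Of 6 measured germinal centre genes, Bcl6, the repressor opposed to Blimp-1 in B cells, fell in CIA, with 8.63 and 8.89 against 9.41 and 9.51 in adjuvant (-0.70, adjusted p = 0.0147). Bcl6 was higher in CIA+MLIF than in CIA (0.73, adjusted p = 0.0148) and had an interaction of 1.07 (adjusted p = 0.0188). Gcsam fell in CIA (-0.61), to 5.60 and 5.86, below the control medians. Bcl6 is active in muscle, fat and macrophages as well.

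The unfolded protein response and secretory list holds the apparatus that XBP1 helps to build. It gave 3 rises and 1 fall of 24 in CIA against adjuvant, where 4.3% of all probe sets rose and 14.2% fell. Its median was 0.19 against -0.25 for all probe sets. Calr, the chaperone calreticulin, rose by 0.82 (adjusted p = 0.0339), with 11.91 and 11.20 in CIA against 10.68 and 10.81 in adjuvant. Sec61a1, the channel into the endoplasmic reticulum, rose by 0.71 and Sec24d, a coat protein of export vesicles, by 0.61. Wfs1, a membrane protein of that compartment, fell (-0.82). Hspa5, the chaperone BiP, had 11.25 and 11.59 in CIA against 10.85 and 10.92 in adjuvant without passing (0.53, adjusted p = 0.0544). Relative to CIA, in CIA+MLIF Calr (-0.89), Pdia4 (-0.67), Sec24d (-0.61) and Edem1 (-0.52) fell and Wfs1 (0.89) rose. Over all probe sets 3.25% fell and 11.5% rose there. After quantile normalization 13 of the 24 passed in CIA against adjuvant (28.1% of all probe sets), and with array weights 0 did (6.86%).

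Markers of other cell types changed over the same arrays. In bulk tissue, fewer cells of a type and less RNA per cell cannot be told apart. Epidermal genes, among which Sdc1 and Prdm1 are also at work, rose in 13 of 14 cases in CIA against adjuvant (4.3% of all probe sets). Their mean log2 signal was 9.48 and 9.62 in CIA+MLIF, 10.34 and 10.66 in CIA, 6.10 and 6.09 in adjuvant+MLIF, and 6.04 and 6.03 in adjuvant. The adjuvant values are below the control medians of those arrays (6.39 and 6.29), as are the adjuvant+MLIF values (6.30 and 6.31). The level of this mean in the paws without collagen is therefore not well measured. Of the 14, 11 passed as higher in CIA+MLIF against adjuvant+MLIF (0.712% of all probe sets), and 9 fell in CIA+MLIF against CIA (3.25%). The order of the 4 groups in this mean, CIA then CIA+MLIF then both adjuvant groups, was also that of Sdc1 and Prdm1. Its part in their changes was not tested.

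Neutrophil genes, like Jchain, were highest in CIA, but unlike it had a higher mean in adjuvant+MLIF than in adjuvant. In that comparison 0 of 12 passed, as did 0% of all probe sets. An unadjusted p under 0.05 in limma was reached by 7 (1107 of all 28944 probe sets). The neutrophil genes averaged 7.60 and 7.58 in CIA+MLIF, 9.24 and 9.47 in CIA, 8.02 on both adjuvant+MLIF arrays, and 7.30 and 7.50 in adjuvant. Of 12, 11 rose in CIA (4.3% of all probe sets) and 11 fell in CIA+MLIF against CIA (3.25%). Adipocyte genes, the setting in which Ebf1 also works, fell in 10 of 11 cases in CIA (14.2% of all probe sets). Their mean relative to adjuvant was -0.11 in CIA+MLIF, -1.10 in CIA and -0.14 in adjuvant+MLIF. All 12 skeletal muscle genes fell in CIA (14.2% of all probe sets) and rose in CIA+MLIF against CIA (11.5%). Of 10 macrophage genes 2 rose (4.3% of all probe sets) and 1 fell (14.2%) in CIA. Of 8 T cell genes 0 passed there (18.5% of all probe sets), with 2 at an unadjusted p under 0.05 in limma (10204 of all 28944). Whether neutrophil, adipocyte or muscle content bears on Jchain or Ebf1 was not tested.

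**Figure D5:**
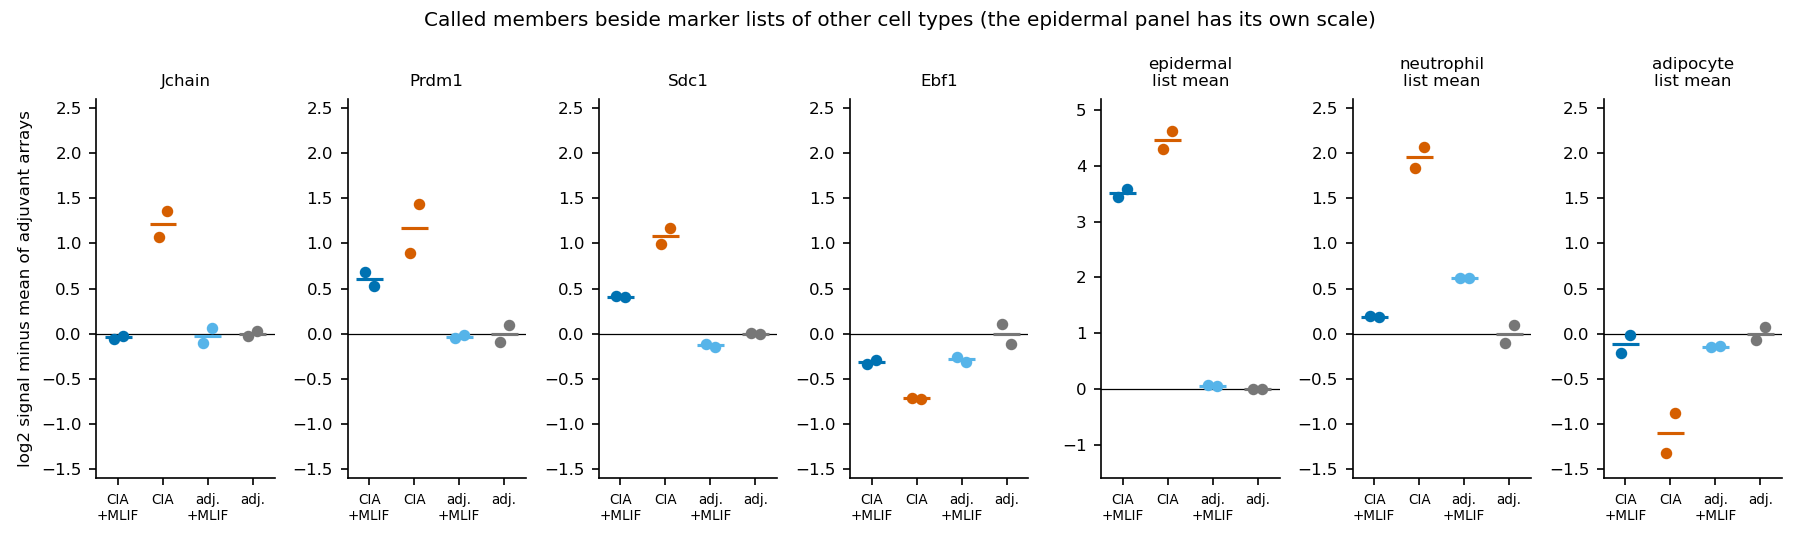
Log2 signal relative to the adjuvant mean on each of the 8 arrays, for Jchain, Prdm1, Sdc1 and Ebf1 beside the means of the epidermal, neutrophil and adipocyte lists, with bars at group means and a wider scale in the epidermal panel. The epidermal mean is raised in both collagen groups (3.52 in CIA+MLIF and 4.47 in CIA), as are Prdm1 and Sdc1. Jchain is raised in CIA alone, and the neutrophil mean is highest in CIA (1.95), with 0.19 in CIA+MLIF and 0.62 in adjuvant+MLIF.

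The genes whose pattern over the 8 arrays came closest to that of Jchain were found by the root mean square difference of gene-centred log2 signals, among 18791 candidate probe sets. They were Hmcn1, an extracellular matrix protein (0.0751 and 0.0925 for its 2 probe sets), Dcstamp, a fusion protein of osteoclasts (0.0803), Gxylt2, a glycosyltransferase (0.0851), and Lamb1, a laminin chain (0.0971). Hmcn1 had 5.99 and 6.25 in CIA+MLIF, 7.32 and 7.50 in CIA, 6.09 and 6.14 in adjuvant+MLIF, and 6.07 and 6.15 in adjuvant. No gene of the plasma cell or B cell lists was among these nearest 5, but those lists make up a small part of the 18791 candidates. For Ebf1 the nearest were Vwa3b (0.0486), Cpa3, a mast cell protease (0.0659), Stum (0.0699), Nlrc3 (0.0740) and the mitochondrial gene ND3 (0.0780). Cpa3 had 8.05 and 8.10 in CIA+MLIF, 7.78 and 7.75 in CIA, 8.25 and 8.28 in adjuvant+MLIF, and 8.51 and 8.39 in adjuvant. The choice of nearest genes follows from these values and carries no test.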

How the data were processed

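RNA of 8 paw samples (300 ng each, biotin-labelled, per the labels' protocols) was measured on 8 arrays, 2 per group. The deposited table holds log2 signals, 1 per probe set and array; the unit was read from the values. How they were summarised and normalised, and with which software, is not given in the sources used here. The first 6613 of 35557 entries, a leading run without annotation, were taken as array controls and left out of the tests. Of the 28944 tested probe sets, 21789 carry 1 symbol, 1621 several and 5534 none. Arrays have no read depth; their number limits the precision.

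The deposited values of all arrays were fitted with 4 group means in limma 3.58.1 (R 4.3.3), with no filter on signal, using its two-sided moderated test (degrees of freedom 4 residual, 4.96 prior) and Benjamini-Hochberg adjustment across every tested probe set. Where a gene had several probe sets, the one with the highest mean was used. The fit was tested on simulated data. Figures were drawn with matplotlib 3.10.9.

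The 9 genes and the gene lists were chosen with earlier results of these data known. All 9 genes are named, and of each list of B lineage genes those that passed and up to 4 more given as values by smallest p, the lists of other cell types being given as counts and means; Mzb1, Pax5, Cd22, Tnfsf13b, Cxcl13, Col10a1, Cilp and Prg4 were named outside that rule after their values were seen. The nearest genes to Jchain and Ebf1 passed over clone names, olfactory receptors and small RNAs. Alternatives were quantile normalization, centring, a filter on the lowest tercile, gene averages, trended and robust variance, array weights, only the groups compared, a replicate block, other thresholds, leaving out each array and, for the plasma cell minus B cell difference, a median in place of the mean and leaving out Ebf1, Pou2af1 or Sdc1.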

Additional observations from a re-analysis of the deposited data

Results flagged for a closer look

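On the deposited values, the change of Jchain under MLIF differed between mice with and without collagen. The interaction, tested in the limma fit over all probe sets, was -1.24 on the log2 scale (SE 0.22, adjusted p = 0.00949). Jchain was lower in CIA+MLIF than in CIA on all arrays (-1.26) and differed by -0.02 in adjuvant+MLIF against adjuvant. Its means were 7.69 in adjuvant+MLIF and 7.71 in adjuvant, against 8.93 in CIA. The call was lost with array weights (limma adjusted p = 0.0530) and in several fits with 1 array left out, as given above. Groups of 2 arrays were too small to call either array outlying within its group. Across groups, CIA replicate 1 was dimmer than the rest (median 6.66 against 7.07 to 7.10).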

How the results depend on the processing

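Over the 20 alternatives, Jchain, Prdm1 and Sdc1 stayed called as higher in CIA against adjuvant and Jchain as lower in CIA+MLIF against CIA (highest adjusted p 0.0485). The counts for CIA against adjuvant (4 of 9 as main value, 3 to 4 with 1 array left out) and for adjuvant+MLIF against adjuvant (0) moved little. In CIA+MLIF against CIA, 2 genes passed as deposited (14.7% of all probe sets), 6 after quantile normalization (24.5%) and 6 with centring (24.1%). There was 1 with array weights (4.36%) and 1 with only the groups compared (9.47%). A threshold of 0.01 gave 1 (6.43%) and 0.1 gave 4 (1 higher, 3 lower, against 24.2%). In CIA+MLIF against adjuvant+MLIF the 0 (0.729% of all probe sets) became 2 with quantile normalization (1.43%), 1 with centring (1.17%) and 3 with array weights (2.28%). For the interaction the 1 (7.24% of the probe sets tested) became 5 with quantile normalization (17.4%) and 5 with centring (16.3%). It became 2 without the lowest tercile (12.2%), 2 with a trended and robust variance (8.73%), 0 with array weights (5.91%) and 2 at a threshold of 0.1 (11.4%). The 2 settings chosen after the data were seen leave 1 array in a group, so that only sizes are given. Averaging the adjuvant+MLIF arrays as 1 left the Jchain interaction at -1.24. Quantile normalization without CIA replicate 1 gave -1.35 for it. That setting gave -1.40 for Jchain, -0.82 for Prdm1 and -0.76 for Sdc1 in CIA+MLIF against CIA. With 1 array left out, Cd79a in CIA+MLIF against CIA was lowest at -0.48 (without CIA replicate 1) and turned to 0.0013 without CIA replicate 2 (adjusted p = 0.995). Causes were not tested.

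The plasma cell minus B cell difference for CIA against adjuvant (1.06) became 0.91 without Ebf1 and 1.01 to 1.11 with 1 array left out. For CIA+MLIF against CIA (-0.55) it became -0.49 after quantile normalization, -0.42 without Ebf1 and -0.59 to -0.51 with 1 array left out. For adjuvant+MLIF against adjuvant (-0.06) it turned to 0.037 with a median in place of the mean, and was -0.13 without Ebf1 and -0.12 to -0.01 with 1 array left out. For CIA+MLIF against adjuvant+MLIF (0.57) it was 0.64 without Pou2af1, 0.50 without Sdc1 and 0.51 to 0.63 with 1 array left out. For the interaction (-0.49) it was -0.41 after quantile normalization, -0.58 with medians, -0.29 without Ebf1 and -0.54 to -0.43 with 1 array left out. The replicate numbers are not said to pair arrays: replicate differences correlated between groups at -0.108 to 0.39 over 6 pairs of groups, and a fit with the replicate block changed no call among the 9 genes (4, 2, 0, 0 and 1 calls, as without it). Over all probe sets, CIA against adjuvant gave 5353 calls (1245 higher) as deposited, 5212 with the replicate block, 8127 (4176 higher) after quantile normalization, 7968 with centring, 1987 with array weights, 3103 with only the groups compared and 17706 without CIA replicate 2. In that comparison the number of genes called over all alternatives ran between 0 and 7 for the further plasma cell genes (2 as deposited), 0 and 11 for the further B cell genes (0), 0 and 6 for receptor signalling (2), 1 and 5 for survival and homing (2), 0 and 5 for precursor genes (2), 0 and 4 for germinal centre genes (2) and 0 and 13 for the secretory list (4), the lows mostly with array weights and the highs mostly without CIA replicate 2 or with another scaling.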
